A study of Mus musculus with 2 samples.

Results

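The genes described here encode the hypoxia-inducible factors (HIFs) and the proteins that set their level by oxygen. They are 10 of the 55536 annotated genes in the tables and were taken by symbol, as named parts of the pathway, together with their 47 annotated transcripts. The material was adrenal gland of female B6CASTF1/J mice aged 2 months, the first-generation cross of C57BL/6J with CAST, with no treatment or engineered allele named. There was 1 group with 2 biological replicates, called animal 1 and animal 2, each a single library made from 300 ng of RNA after removal of ribosomal RNA, with ERCC spike-in RNA added. The labels are at odds on whether the libraries come from different animals, and their biological replicate numbers were followed. Reads of both parental alleles were assigned to 1 reference sequence and cannot be separated here.

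In cells with enough oxygen, prolyl hydroxylases (PHD enzymes) modify prolines of the HIF alpha subunits, the von Hippel-Lindau protein binds the modified subunit, and its ubiquitin ligase marks it for degradation. When oxygen is scarce the alpha subunit escapes, pairs with an ARNT partner and switches on genes for glycolysis, vessel growth and red cell production. An asparaginyl hydroxylase, factor inhibiting HIF, separately blocks the alpha subunit from its coactivators. Control is thus largely at the protein, which these RNA data do not show. The adrenal medulla is known for tumours that carry VHL or EPAS1 mutations in humans.

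The sites that oxygen acts on lie in coding exons of the 3 alpha genes, and their sequences identify the transcripts that encode them. The coding frames of GENCODE M21 on mm10 were searched for the order leucine, any 2 residues, leucine, alanine, proline. Hif1a and Epas1 each hold 2 such sites and Hif3a holds 1. Each stretch below has 33 bases, written 5′ to 3′ on the gene's strand, with the codon of the motif's proline, the residue the enzymes are known to modify, in capitals.
Hif1a, codon 402 of 836 in Hif1a-201, chr12:73939683-73939715, plus strand: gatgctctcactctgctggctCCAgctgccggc
Hif1a, codon 577 of 836 in Hif1a-201, chr12:73941970-73942002, plus strand: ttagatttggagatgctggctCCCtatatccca
Epas1, codon 405 of 874 in Epas1-201, chr17:86824564-86824596, plus strand: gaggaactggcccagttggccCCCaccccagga
Epas1, codon 530 of 874 in Epas1-201, chr17:86827507-86827539, plus strand: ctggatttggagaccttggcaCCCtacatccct
Hif3a, codon 489 of 664 in Hif3a-202, chr7:17041196-17041228, minus strand: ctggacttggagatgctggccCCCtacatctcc

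Levels are given in TPM, an abundance divided by transcript length whose sum over a table is fixed. All 10 genes reached 1 TPM in both animals, and they spanned a wide range. Epas1 led at 55.7 ± 8.66 TPM (SD, n = 2, as for every mean here), which was place 1126 among 22015 nuclear protein-coding genes. Below it came Egln2, then Arnt, Hif1a and Egln1 close together, then Arnt2, Hif1an and Vhl, and last Egln3 and Hif3a at places 11149 and 11201. Neighbours in that order whose library values overlapped were Arnt and Hif1a, Hif1a and Egln1, Hif1an and Vhl, and Egln3 and Hif3a. The last 2 of these pairs stood in opposite order in the 2 animals, with Vhl above Hif1an and Hif3a above Egln3 in animal 1.

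**Figure D1:**
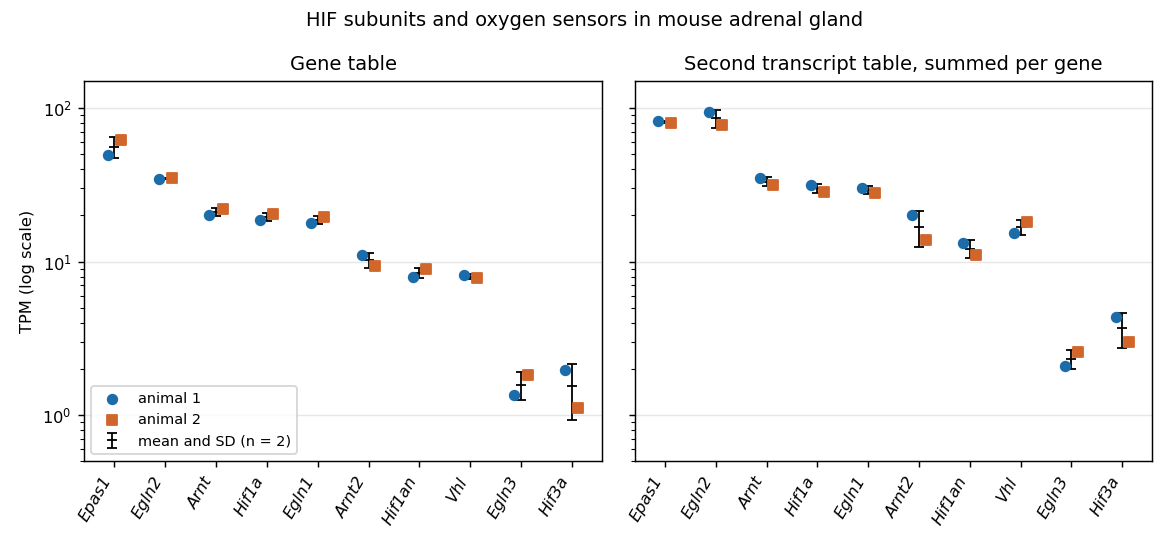
Abundance of the 10 genes in TPM on a log axis, for animal 1 (circles) and animal 2 (squares), with the mean and SD of both, in the gene table (left) and in the second transcript table summed per gene (right). Epas1 leads on the left in both animals, Egln2 leads on the right in animal 1 and Epas1 in animal 2, and Egln3 and Hif3a are lowest in both.

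A second deposited transcript table, with the column names of another program, gave higher TPM for every member. Nuclear protein-coding genes held 60.9% and 58.1% of its TPM in animals 1 and 2, against 31.7% and 35.6% in the gene table. By the mean of that second table Egln2 stood above Epas1, though only in animal 1 (94.1 against 81.8 TPM) and not in animal 2 (77.6 against 79.9 TPM), and 4 of the 10 genes kept their place. A single short noncoding transcript of Egln2, described with that gene, carried much of its TPM there. With protein-coding transcripts alone, Epas1 was first and Egln2 second in both tables.

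Among the alpha subunits, Epas1 (HIF-2α, also known for its role in endothelium and in catecholamine-producing cells) was the most abundant. It lies on chr17:86753700-86833410, plus strand. Its level was 49.6 TPM in animal 1 and 61.9 TPM in animal 2, on 9258 and 10348 expected counts. It made up 70.6% of the summed alpha TPM in animal 1 and 74.3% in animal 2, or 72.4% ± 2.62. The second table gave a close share, 70.6% ± 1.52. Hif1a (HIF-1α, the broadly expressed alpha subunit that drives glycolytic genes; chr12:73901375-73947530, plus strand) stood at 18.7 TPM in animal 1 and 20.3 TPM in animal 2. Epas1 had 2.65 times the TPM of Hif1a in animal 1 and 3.05 times in animal 2, so the order of these 2 genes was the same in both libraries. Hif3a (HIF-3α, which lacks much of the activating part and has forms that inhibit the other subunits; chr7:17031507-17062427, minus strand) was at 1.98 TPM in animal 1 and 1.11 TPM in animal 2, on 222 and 191 counts. It contributed 2.82% and 1.33% of the alpha TPM. In bulk tissue, fewer cells of a type and less RNA per cell cannot be told apart, so these shares describe the whole gland.

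By counts, the RNA of the alpha genes was mostly of forms that keep the oxygen-dependent sites shown above. For Epas1, the site-bearing Epas1-201 took 98.4% of the gene's TPM in animal 1 and 93.2% in animal 2. The remainder was Epas1-202, a noncoding fragment with 6.45 and 32.4 counts, which the second table listed at 0. For Hif1a, 2 of 5 transcripts hold both sites, and they took 90.2% and 94.1% of the TPM in animals 1 and 2, or 98.3% and 99.0% of the counts. For Hif3a, 2 of 4 transcripts hold the site, with 62.1% of TPM in animal 1 and 91.9% in animal 2. That gap rested on Hif3a-203, an incomplete model of 371 bases, which had 7.11 counts in animal 1 and 0 in animal 2. By counts, the site-bearing share of Hif3a was 96.8% and 99.4%, while the second table gave 49.5% and 51.0% of TPM, since it too placed much of its Hif3a TPM on short incomplete models.

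Hif1a has 2 annotated starts. Hif1a-201 and Hif1a-203 begin at position 73907904 of chromosome 12 and Hif1a-202 at position 73901375, further upstream. Hif1a-201 and Hif1a-203 together held 76.9% of the TPM of these 3 transcripts in animal 1 and 77.1% in animal 2. Hif1a-202 held 23.1% and 22.9%. In the second table the share of Hif1a-201 and Hif1a-203 was 82.3% in animal 1 and 88.9% in animal 2. Only Hif1a-202 has the upstream start, and it also lacks bases of exon 11, so these shares do not measure start use alone. The coding part of exon 1, which belongs to the downstream start, is shown because it gives Hif1a-201 its own amino-terminal codons. Only these 35 coding bases of the exon are given, with the start codon in capitals.
Hif1a, exon 1 of 15 of Hif1a-201, chr12:73908290-73908324, plus strand: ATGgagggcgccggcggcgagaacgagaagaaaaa
Hif1a-201 also holds 42 coding bases in exon 11 that Hif1a-202 lacks, which stand between the codons of its 2 sites. They are in capitals here, with 9 transcript bases on either side.
Hif1a, part of exon 11 of 15 of Hif1a-201, chr12:73941688-73941729 for the capitals, plus strand: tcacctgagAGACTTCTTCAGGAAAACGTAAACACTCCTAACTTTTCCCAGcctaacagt
With both stretches Hif1a-201 encodes 836 codons, against 810 in Hif1a-202, and the site prolines, at codons 402 and 577 in Hif1a-201, are at codons 390 and 551 in Hif1a-202. Hif1a-201 stood at 12.8 TPM in animal 1 and 14.7 TPM in animal 2, and Hif1a-202 at 4.00 and 4.45 TPM. A protein-coding model on the same strand, Gm49321, overlaps the 3′ end of Hif1a and held 33.4 and 22.0 counts. Hif1a was the only one of the 10 genes whose expected counts were not whole in both libraries, within 0.005.

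Hif3a also has more than 1 first exon. The start of Hif3a-202 and Hif3a-204 held 68.3% of the TPM of the full-start transcripts in animal 1 and 85.6% in animal 2, and that of Hif3a-201 held 31.7% and 14.4%. The Hif3a-201 values rested on 28.8 and 11.4 counts. Hif3a-202 itself differed little between the animals, at 0.84 TPM in animal 1 and 0.86 TPM in animal 2. Animal 1's larger gene-level TPM was therefore carried by Hif3a-201 and by the short Hif3a-203.

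**Figure D2:**
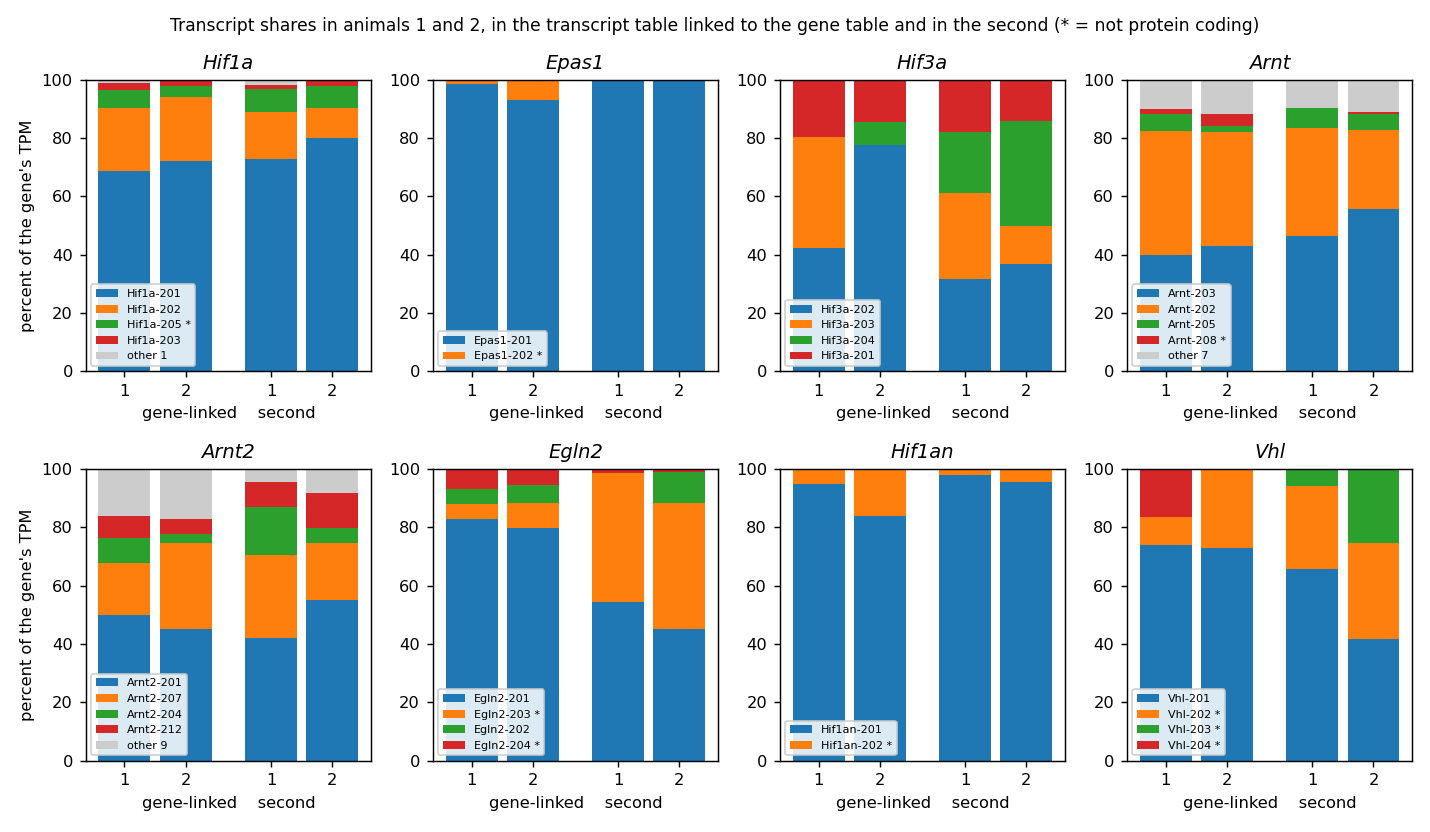
Share of each gene's TPM in its transcripts (percent), for animals 1 and 2 in the transcript table linked to the gene table (left pair of bars) and in the second table (right pair). An asterisk marks models that are not protein coding; Egln2-203 takes a small share in the left pair and 44.3% and 43.0% in the right pair, and Epas1-201 takes at least 93.2% in every bar.

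The ARNT partners were present at a summed 31.35 TPM in animal 1 and 31.4 TPM in animal 2. Arnt (HIF-1β, also the partner of the aryl hydrocarbon receptor; chr3:95434388-95497240, plus strand) stood at 20.3 TPM in animal 1 and 22.0 TPM in animal 2. Arnt2 (a closely related partner best known from neurons; chr7:84246278-84410176, minus strand) stood at 11.1 TPM and 9.42 TPM. Arnt took 64.6% of the pair's TPM in animal 1 and 70.0% in animal 2, or 67.3% ± 3.80, and 66.5% ± 4.41 in the second table. The summed alpha subunits stood above the partners, at 70.3 TPM in animal 1 and 83.3 TPM in animal 2. For Arnt2 in animal 2, the deposited TPM of 9.42 lay below its own deposited interval of 9.56 to 13.4 TPM, which has no stated level.

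Arnt transcripts were divided between forms with and without a cassette exon. This exon of 45 bases is exon 5 of 22 in Arnt-203 and lies on chr3:95466793-95466837, plus strand. It is shown in capitals with 9 transcript bases on either side, because the leading Arnt transcripts differ in it.
Arnt, exon 5 of Arnt-203: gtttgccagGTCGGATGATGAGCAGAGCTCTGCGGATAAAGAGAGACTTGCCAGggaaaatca
Transcripts with the exon held 48.6% of the TPM of the transcripts that span it in animal 1 and 54.9% in animal 2, or 51.7% ± 4.44. In the second table that share was 53.8% and 65.0%, or 59.4% ± 7.90. The transcripts with the exon include noncoding models with a retained intron. With protein-coding transcripts alone the share was 45.4% and 51.2%, or 48.3% ± 4.07, in the first table. In the second it was then 51.4% and 63.0%. By expected counts in animals 1 and 2, all transcripts with the exon had 864 and 978, and those without it 1439 and 1258. The second table had 1079 and 1326 counts with the exon, and 1515 and 1167 without. Arnt-202 and Arnt-203 also differ in length (4325 and 2699 bases) and in annotated 3′ end. These shares therefore do not measure use of the exon alone. Arnt was the only member whose leading transcript was not the same in both animals and both tables. In the first table Arnt-202, without the exon, led in animal 1 with 42.5% of the gene's TPM, and Arnt-203, with it, led in animal 2 with 43.0%. By expected counts Arnt-202 led in both animals, with 54.6% and 52.8%. For Arnt2, Arnt2-201 led with 50.0% and 45.1%, and Arnt2-207, which starts at another first exon, took 17.9% in animal 1 and 29.7% in animal 2. The second table had these Arnt2-207 shares the other way round in size, at 28.4% and 19.3%, so the split between the Arnt2 forms differed with the quantification. Arnt2-204, an incomplete model, had 8.53% and 2.96% in the first table and 16.4% and 5.41% in the second.

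Among the prolyl hydroxylases, Egln2 (PHD1, the largely nuclear enzyme; chr7:27158658-27166802, minus strand) was highest per transcript length at 34.4 TPM in animal 1 and 35.1 TPM in animal 2. Egln1 (PHD2, the main enzyme that marks HIF-1α under normal oxygen; chr8:124908587-124949324, minus strand) stood at 17.8 TPM and 19.5 TPM. Egln3 (PHD3, an enzyme whose own gene is a HIF target; chr12:54178981-54203860, minus strand) stood at 1.35 TPM and 1.82 TPM, on 121 and 154 counts. Egln2 thus took 64.2% of the summed prolyl hydroxylase TPM in animal 1 and 62.3% in animal 2, Egln1 took 33.2% and 34.5%, and Egln3 took 2.52% and 3.23%. By counts, which favour the longer Egln1 transcript, Egln1 held 48.9% and 50.6% and Egln2 held 48.4% and 45.9%. Egln1 and Egln3 have a single annotated transcript each.

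The Egln2 level depended on how reads were shared among its transcripts. Egln2-201, which encodes the enzyme, had 83.0% of the gene's TPM in animal 1 and 79.9% in animal 2 in the first table. Egln2-203, a noncoding model of 455 bases at the 5′ end of the gene, had 5.13% and 8.54% there, on 22.0 and 35.3 counts. In the second table Egln2-203 had 150 and 139 counts, and its short length turned these into 41.7 TPM in animal 1 and 33.4 TPM in animal 2, or 44.3% and 43.0% of the gene. Egln2-202, which has a coding frame of the same length, had 4.94% and 6.23% in the first table and 0% and 10.7% in the second. Its protein-coding transcripts alone came to 51.1 TPM and 43.4 TPM in that table, below Epas1 at 81.8 TPM and 79.9 TPM. The ratio of Egln2 to Egln1 was 1.93 in animal 1 and 1.80 in animal 2 in the gene table, against 3.10 and 2.77 in the second.

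Hif1an (factor inhibiting HIF; chr19:44562850-44576274, plus strand) stood at 7.97 TPM in animal 1 and 8.90 TPM in animal 2. Egln1 was at 2.24 times and 2.19 times its level. The complete coding transcript Hif1an-201 was at 7.55 TPM and 7.47 TPM. The remaining 5.26% and 16.1% of the gene's TPM was Hif1an-202, a model with a retained intron, on 11.3 and 36.5 counts.

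Vhl (the substrate receptor of the ligase; chr6:113623959-113631633, plus strand) stood at 8.20 TPM in animal 1 and 7.80 TPM in animal 2, on 594 and 540 counts. Its only complete coding transcript, Vhl-201, was at 6.07 TPM and 5.69 TPM, which is 74.0% and 73.0% of the gene. The rest was split differently in each library, with Vhl-204 at 16.6% and 0%, and Vhl-202 at 9.34% and 27.0%. In counts these short models were small, since Vhl-201 held 96.3% and 93.8%. The second table gave Vhl-201 65.9% of TPM in animal 1 and 41.8% in animal 2, and Vhl-203, listed at 0 in the first table, 5.69% and 25.2%, so the gene-level TPM of Vhl there was set in part by models that encode no full protein.

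Differences between the animals were measured as ratios of counts scaled by the trimmed mean of M-values, animal 1 over animal 2. No member was over 1.5-fold apart, against 5.68% of the 12171 genes that averaged 100 counts or more. The median absolute log2 ratio was 0.12 for the members and 0.17 for those genes. For 3 of the 10 members, Epas1, Arnt2 and Egln2, the 95% counting interval left out a ratio of 1, as it did for 54.4% of those genes. The interval allows for counting error alone, and amplified reads are not separate molecules. Since there is 1 group of 2 libraries, no test was made.

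Arnt2 had the largest of these 3 ratios, 1.22 with an interval of 1.14 to 1.31, on 1789 counts in animal 1 and 1480 in animal 2. Of the genes with at least 100 counts, 74.2% had a smaller log2 ratio in size. Epas1 had a ratio of 0.904 with an interval of 0.879 to 0.930, or 1.11-fold higher in animal 2. Egln2 had a ratio of 1.07 with an interval of 1.01 to 1.14. Egln3 was farther from 1, at 0.795, but its low counts gave an interval of 0.621 to 1.01. For Hif3a the ratio was 1.17 with an interval of 0.964 to 1.43, whereas its TPM was 1.78-fold higher in animal 1.

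**Figure D3:**
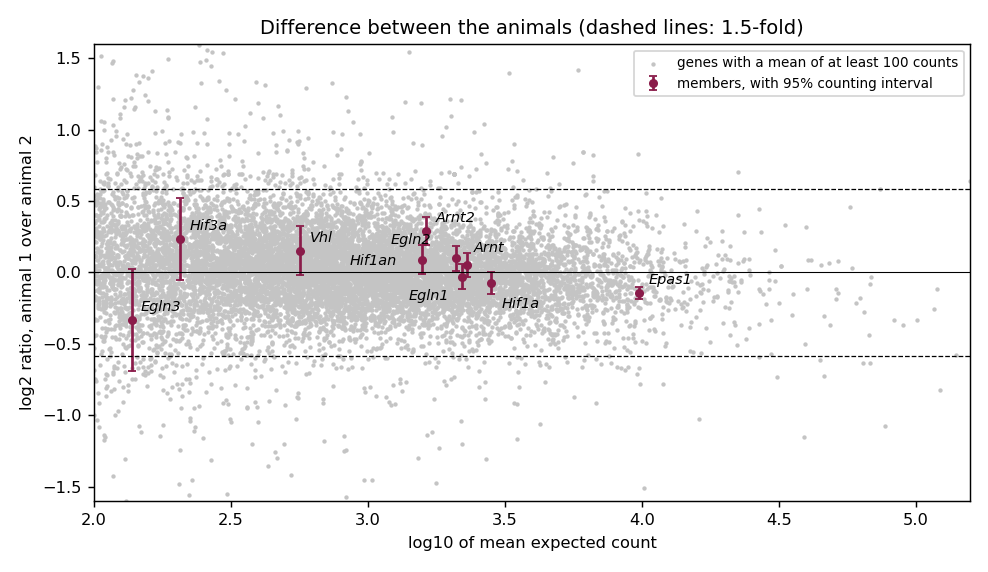
Log2 ratio of animal 1 over animal 2 (scaled counts) against the log10 of the mean expected count, for genes with a mean of at least 100 counts (grey) and the 10 genes described (dark, with 95% counting intervals). All 10 points lie between the dashed lines of 1.5-fold; grey points beyond the vertical range are not drawn.

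By direction, 6 of 10 members were higher in animal 1, against 52.2% of the 17308 genes that averaged 10 counts or more. Only 2 members were higher there with scaling to the spike-ins and 3 by TPM. No share over all genes is given for these 2 scalings. The median log2 ratio of all genes moved as well, to −0.19 with the spike-ins and −0.11 by TPM. Under every scaling run and by the scaled counts of the second table, Arnt2 and Hif3a were higher in animal 1. By the same measures Epas1, Hif1a and Egln3 were higher in animal 2, and Arnt, Egln1, Egln2, Hif1an and Vhl changed side under at least 1. The TPM of the second table put Epas1 (81.8 and 79.9 TPM) and Hif1a (31.5 and 28.6 TPM) higher in animal 1 instead. The median log2 ratio of the members was 0.07, against 0.02 over all genes with at least 10 counts.

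Markers of the gland's cell types moved as well. All 7 chromaffin cell markers were higher in animal 1 under every scaling and by TPM, with a summed 1829 TPM in animal 1 and 1494 TPM in animal 2. Of 7 cortical markers, 2 stood higher in animal 1 and 5 in animal 2 (1 and 6 with the spike-ins), and the sums were 15866 and 18288 TPM. Of 7 endothelial markers, 1 was higher in animal 1 and 6 in animal 2 (0 and 7 with the spike-ins, 2 and 5 by total counts), with sums of 182 and 205 TPM. Of 7 adipocyte markers, 1 was higher in animal 1 and 6 in animal 2 (0 and 7 with the spike-ins), at 2299 and 3086 TPM in all. The brown fat genes Ucp1, Cox8b and Cidea among them were 2.04-fold, 1.88-fold and 1.58-fold higher in animal 2. Of 6 mural cell markers, 2 were above in animal 1 and 4 in animal 2 (0 and 6 with the spike-ins, 3 and 3 by TPM), with a median log2 ratio of −0.22 and sums of 61.2 and 60.03 TPM. Acta2 among them was 1.52-fold higher in animal 2. Of 6 macrophage markers, 5 were above in animal 1 and 1 in animal 2 (4 and 2 with the spike-ins and by TPM), with a median log2 ratio of 0.25 and sums of 133 and 129 TPM. The 6 kidney markers added up to 20.0 TPM in animal 1 but 0.46 TPM in animal 2. All 5 of them with at least 10 mean counts were higher in animal 1 (4 and 1 with the spike-ins). Kap, a proximal tubule transcript, was at 350 counts and 0 counts, and Lrp2, a tubule receptor gene, at 437 and 63 counts. Aqp2 was at 0.28 TPM in both animals. All 7 defining markers of the medulla and all 7 of the cortex were above 1 TPM in both libraries. The part of these differences in the values of Arnt2, Epas1 and the other members was not tested.

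The lists of other genes of the pathway that follow were chosen by role. Their counts by animal moved with the scaling, as the values in brackets show. With the spike-ins, the median log2 ratio of all genes also moved toward animal 2, to −0.19. All 4 partners of VHL in its ligase were present, with 1 higher in animal 1 and 3 in animal 2 (0 and 4 with the spike-ins, 3 and 1 by total counts) and none over 1.5-fold apart. The adaptors Elob and Eloc averaged 140.0 ± 23.3 and 67.5 ± 11.6 TPM, the RING protein Rbx1 44.7 ± 0.559 TPM and the scaffold Cul2 19.9 ± 0.919 TPM. All of them thus lay above Vhl. Of the 4 coactivators and their competitors, 2 were higher in animal 1 and 2 in animal 2 (spike-in scaling gave 0 and 4). The acetyltransferases Ep300 and Crebbp averaged 20.6 ± 5.71 and 19.7 ± 7.54 TPM, and the competitors Cited2 and Cited4 averaged 19.7 ± 0.346 and 6.32 ± 0.0424 TPM. Crebbp, on 4828 counts in animal 1 and 7473 in animal 2, was 1.53-fold higher in animal 2 (1.47-fold by total counts), and 2.43% of genes passed 1.5-fold in that direction.

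Of 9 other regulators of HIF alpha stability, 6 had the higher value in animal 1 and 3 in animal 2 (2 and 7 with the spike-ins), and none was over 1.5-fold apart. The chaperone genes Hsp90ab1 and Hsp90aa1, whose products protect HIF-1α, averaged 837 ± 215 and 282 ± 83.8 TPM, and Rack1, whose product competes with them, 223 ± 25.3 TPM. The deacetylase gene Sirt1 was lowest at 5.36 ± 0.955 TPM. Of 11 other factors of the same basic helix-loop-helix PAS family, 3 reached 1 TPM in both animals in the gene table. All 3 are parts of the circadian clock. These were Clock at 19.9 ± 2.69 TPM, Arntl at 17.9 ± 3.59 TPM and Npas2 at 6.71 ± 0.516 TPM. In the second table Arntl2 (3.48 and 5.46 TPM) and Ahr (1.94 and 1.31 TPM) also reached 1 TPM in both animals. Of the 8 factors with at least 10 mean counts, 4 were higher in each animal (2 and 6 with the spike-ins), and Npas1 was at 0 counts in both. Of 11 other dioxygenases that use oxygen, 10 reached 1 TPM in both animals, and of the 10 with enough counts 4 were higher in animal 1 and 6 in animal 2 (spike-in scaling gave 0 and 10). The histone demethylase genes Kdm5c and Kdm6a averaged 29.3 ± 2.17 and 18.4 ± 1.57 TPM, and the collagen prolyl hydroxylase gene P4ha1 22.9 ± 6.84 TPM, while P4ha3 was at 0.14 ± 0.0849 TPM.

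The genes that HIFs switch on were described by 2 lists, 33 genes in all, whose levels are no measure of HIF protein. Of the 30 with at least 10 mean counts, 14 had the higher value in animal 1 and 16 in animal 2. Their median log2 ratio was −0.05. Of the 27 with at least 100, 1 was over 1.5-fold higher in animal 1 and 2 in animal 2. Across all genes, 52.2% of those with at least 10 mean counts were higher in animal 1. Of those with at least 100, 3.25% passed 1.5-fold in the direction of animal 1 and 2.43% in that of animal 2.

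Of 15 glycolytic targets, 14 reached 1 TPM in both animals, 6 were higher in animal 1 and 9 in animal 2 (spike-in scaling gave 1 and 14, and TPM 3 and 12). Aldoa, Gapdh and Pgam1 were the most abundant, at 840 ± 237, 756 ± 213 and 299 ± 13.6 TPM. The Gapdh and Pgam1 counts were not whole, and their reads could be shared with near-identical copies. Slc16a3, the lactate exporter gene, was lowest at 0.41 ± 0.0354 TPM. Pfkfb3, which makes the activator of phosphofructokinase, had 27.8 TPM in animal 1 and 56.4 TPM in animal 2. Its scaled counts were 2.09-fold higher in animal 2, and the ratio of animal 1 over animal 2 was 0.480 with an interval of 0.458 to 0.502.

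Of 18 other targets, 13 reached 1 TPM in both animals, and of the 15 with enough counts 8 were higher in animal 1 and 7 in animal 2 (spike-in scaling gave 5 and 10). Vegfa, the vessel growth factor, was the most abundant with 95.8 TPM in animal 1 and 169 TPM in animal 2. Its scaled counts were 1.502-fold higher in animal 2, just past the threshold, and 1.44-fold higher by total counts. The mitophagy receptor genes Bnip3 and Bnip3l averaged 89.3 ± 22.5 and 64.8 ± 3.78 TPM. Higd1a, which encodes a small mitochondrial protein, had 30.7 TPM in animal 1 and 15.5 TPM in animal 2, with a ratio of 1.58 and an interval of 1.43 to 1.76. That ratio was 1.37 with the spike-ins. Epo, the red cell hormone gene, had 0 counts in both libraries, where 3 counts would be 0.0877 CPM in animal 1 and 0.0834 CPM in animal 2. The erythroid marker sum was 1133 TPM in animal 1 and 1994 in animal 2, where Vegfa, Pfkfb3 and the brown fat genes were also higher. Of the 5 erythroid markers, 1 was higher in animal 1 and 4 in animal 2 (0 and 5 with the spike-ins). The 1 higher in animal 1 was Hbb-bt, on 888 and 833 counts. Hba-a1 and Hba-a2, near-identical haemoglobin genes whose reads can be shared, were 1.72-fold and 1.89-fold higher in animal 2. The part of these cells in the target genes' values was not tested.

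**Figure D4:**
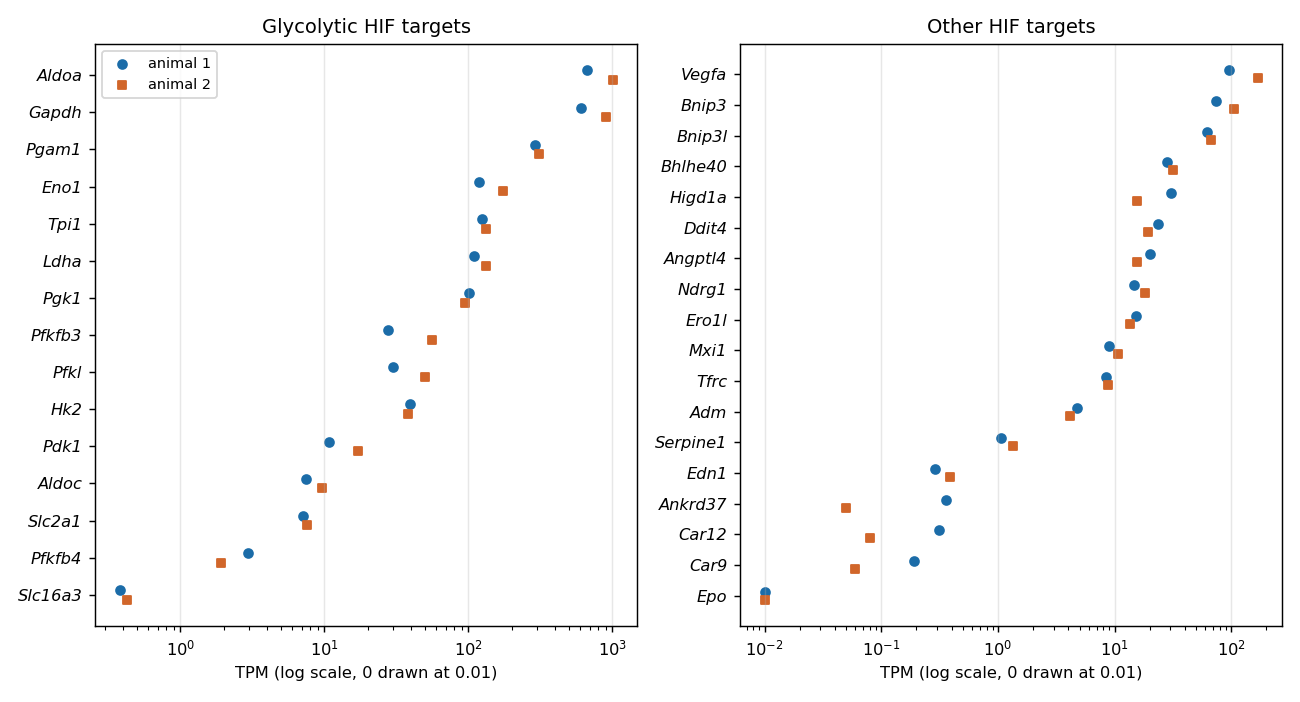
Abundance in TPM on a log axis of the 15 glycolytic (left) and 18 other (right) HIF target genes in animal 1 (circles) and animal 2 (squares). Pfkfb3 and Vegfa lie to the right in animal 2 and Higd1a to the right in animal 1; Epo is at 0 in both and is drawn at the left edge.

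Genes known from acute oxygen sensing in the carotid body, a chemoreceptor related to the adrenal medulla, were uneven. Of 7 genes, 4 reached 1 TPM in both animals, and of the 5 with enough counts 4 were higher in animal 1 and 1 in animal 2 (spike-in scaling gave 2 and 3). The potassium channel gene Kcnk3 averaged 380 ± 63.4 TPM, its relative Kcnk9 15.5 ± 2.39 TPM, and Ndufa4l2, a mitochondrial HIF target, 14.9 ± 1.35 TPM. Olfr78, an olfactory receptor gene, had 9 counts in animal 1 and 0 in animal 2. Bulk tissue does not show which cells of the gland these levels come from.

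Promoter windows were compared for the core of the HIF response element, either ACGTG or GCGTG on either strand, in windows of 300 bases from RefSeq on GRCm38.p6. Windows were found for 9 of the 10 members, and Epas1 had no entry. Egln2 had more than 1 window, with 6 cores and 1 core, and these are counted separately. Of the 10 windows, 7 held a core, against 43.8% of 32851 windows of all genes, and the members' windows were richer in G and C, at a median of 63.2% against 52.7%. A match is only a description of these letters.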

How the data were processed

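Total RNA of the adrenal gland was sequenced as 2 libraries of 1 group, labelled as biological replicates and called animals 1 and 2, though the labels conflict on whether the animals differ. The authors deposited, per library, a gene table with an expected count, a TPM and the bounds of a TPM interval (a deposited score of unstated level), a transcript table with the deposited percent of the gene's TPM, and a second transcript table with an estimated count and TPM. Per the file headers, the column names are those of RSEM and kallisto. Per the labels' text, mm10 and GENCODE M21 were used. The aligner, program versions and settings are not given in the sources used here. Nuclear protein-coding genes take a share of TPM that differs between tables and libraries, so TPM levels are not on a common scale.

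The gene tables held 34203664 and 35959484 counts on annotated genes in animals 1 and 2. Rows with no gene (96 spike-ins with 0.909% and 0.760% of counts, and 26249 others with 5.79 counts and 1 count) were left out of library sizes. Ratios are log2 of animal 1 over animal 2 with a prior of 0.5 counts, scaled by edgeR 4.0.16 (factors 1.02 and 0.981, on rounded counts), with Clopper-Pearson intervals at 95% in Python 3.11.15 with scipy 1.17.1. Fold was counted from a mean of 100 counts and direction from 10. Steps were tested on simulated data. No test between groups was possible, and the spread between libraries may be technical. Alternatives were DESeq2 1.42.0 size factors, total counts, spike-ins, TPM, a prior of 5, other thresholds, the second table and leaving out each library. Named were every member, up to 3 transcripts of each with at least 10% of its TPM in either table, and of each other list the 3 most and the least abundant genes plus those over 1.5-fold apart, except that cell markers are given as sums and counts with the genes over 1.5-fold apart. Gm49321, Epas1-202, Hif1a-203, Hif3a-201 and Vhl-204 are outside this rule and were chosen after their values were seen. Members, lists and rules were chosen with earlier results of these data known.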

Additional observations from a re-analysis of the deposited data

How the results depend on the processing

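Scaling to the spike-ins moved the median log2 ratio of all genes to −0.19, and TPM moved it to −0.11, against 0.02 with the main scaling. With the spike-ins, 2 members were higher in animal 1 and their median log2 ratio was −0.13. By TPM, 3 were higher in animal 1, the median was −0.12 and 1 member, Hif3a, was over 1.5-fold apart. The Egln2 log2 ratio turned to −0.11 with the spike-ins and to −0.028 by TPM, both still above the median of all genes. By the second table, 4 members kept their place in the order of levels, 6 did with its protein-coding transcripts alone (added after seeing the data), and Egln2 took 73.0% of prolyl hydroxylase TPM. Taking 1 library alone, between 6 and 10 members kept their place. DESeq2 size factors, total counts, a prior of 5 counts and other thresholds moved no count over the members by over 1.5 times. By total counts, the VHL ligase partners were 3 higher in animal 1 and 1 in animal 2, the other bHLH-PAS factors 6 and 2, and Crebbp and Vegfa were 1.47-fold and 1.44-fold higher in animal 2, under the 1.5-fold mark. No paired analysis was possible because there is only 1 group. With 121 to 154 counts for Egln3 and 191 to 222 for Hif3a, depth limits these 2 genes most.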
